A study of Mus musculus with 12 samples.

Results

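Matrix proteases and their inhibitors are described here by 10 genes, which encode the secreted and membrane-bound proteases that cut extracellular matrix and the inhibitors that hold them in check. They were found by matching the gene symbols Mmp2, Mmp14, Timp1, Timp2, Timp3, Adamts1, Adamts2, Adamts5, Plau and Plaur to the deposited table of read counts. All 10 had a row among the 15113 genes of the table, and all 10 passed the filter on low counts that left 12730 genes for testing. The rule names genes by symbol and uses no measured value, but the members were chosen with earlier results of these data known. The shares of members called below therefore describe them and are not a blind comparison with all genes.

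The series asked how C2C12 myotubes respond to BAM15, a small molecule that carries protons across the inner mitochondrial membrane and so uncouples respiration from ATP synthesis. C2C12 is a mouse myoblast line, here differentiated into multinucleated myotubes in low serum. Myotubes received 20 μM BAM15 dissolved in DMSO for 16 h, or the DMSO vehicle alone for the same 16 h, and 6 libraries were sequenced per condition. The libraries were made with QuantSeq, which reads the 3′ end of polyadenylated RNA, so that each transcript gives about a single countable fragment and counts are not divided by transcript length. Nothing in the sample records says whether the 6 libraries of a condition came from separate cultures, and p-values therefore measure the spread between libraries, which may be technical.

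Matrix metalloproteinases (MMPs) and the ADAMTS proteases are zinc enzymes that cut collagens, proteoglycans and other matrix proteins around the cell, and in muscle they take part in myoblast migration, fusion and remodelling of the basement membrane. The tissue inhibitors of metalloproteinases (TIMPs) block these enzymes by occupying the active site, but TIMP2 has a second role, since a complex of membrane-anchored MMP14 and TIMP2 captures the inactive precursor of MMP2 and lets a neighbouring MMP14 activate it. Urokinase (Plau), bound to its receptor (Plaur), converts plasminogen to plasmin, which cuts fibrin and further matrix proteins.

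A library's counts were scaled to a common depth with the TMM method of edgeR, and these scaled values are called normalized counts. Between 13983725 and 18751780 reads were counted per BAM15 library and between 15299135 and 18866728 per vehicle library. The quasi-likelihood test of edgeR was run on every tested gene, with Benjamini-Hochberg adjustment over the 12730. A gene was called higher or lower at an adjusted p below 0.01, and the full set of 3 thresholds further asked for a fold change above 2 and for a mean of the 12 libraries above 50 normalized counts. BAM15 libraries 4 to 6 stood apart from BAM15 libraries 1 to 3, with 3081 genes (24.2%) differing at an adjusted p below 0.01, whereas 0 genes differed between the same numbers of the vehicle group, also at 0.05. The sample records name no batch, and the fold change of each member is given below both over all libraries and within each set of numbers. In bulk RNA, fewer cells of a type and less RNA per cell cannot be told apart.

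Of the members, 9 of 10 passed the adjusted p threshold, against 42.3% of all tested genes. Mmp2, Adamts1, Adamts2, Adamts5 and Plaur were higher in BAM15 (5 of 10, with 22% of all genes higher), and Mmp14, Timp1, Timp2 and Plau were lower (4 of 10, with 20.3% lower). Timp3 did not pass. The full set of 3 thresholds was passed by 4 of 10 members against 7.28% of all genes, with Adamts1 and Adamts5 higher (2 of 10, against 3.70%) and Timp1 and Plau lower (2 of 10, against 3.58%). The lowest library of a condition lay above the highest of the other for 9 of 10 members, as it did for 34.2% of all genes. The median log2 fold change was 0.44 over the members and 0.02 over all tested genes.

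**Figure D1:**
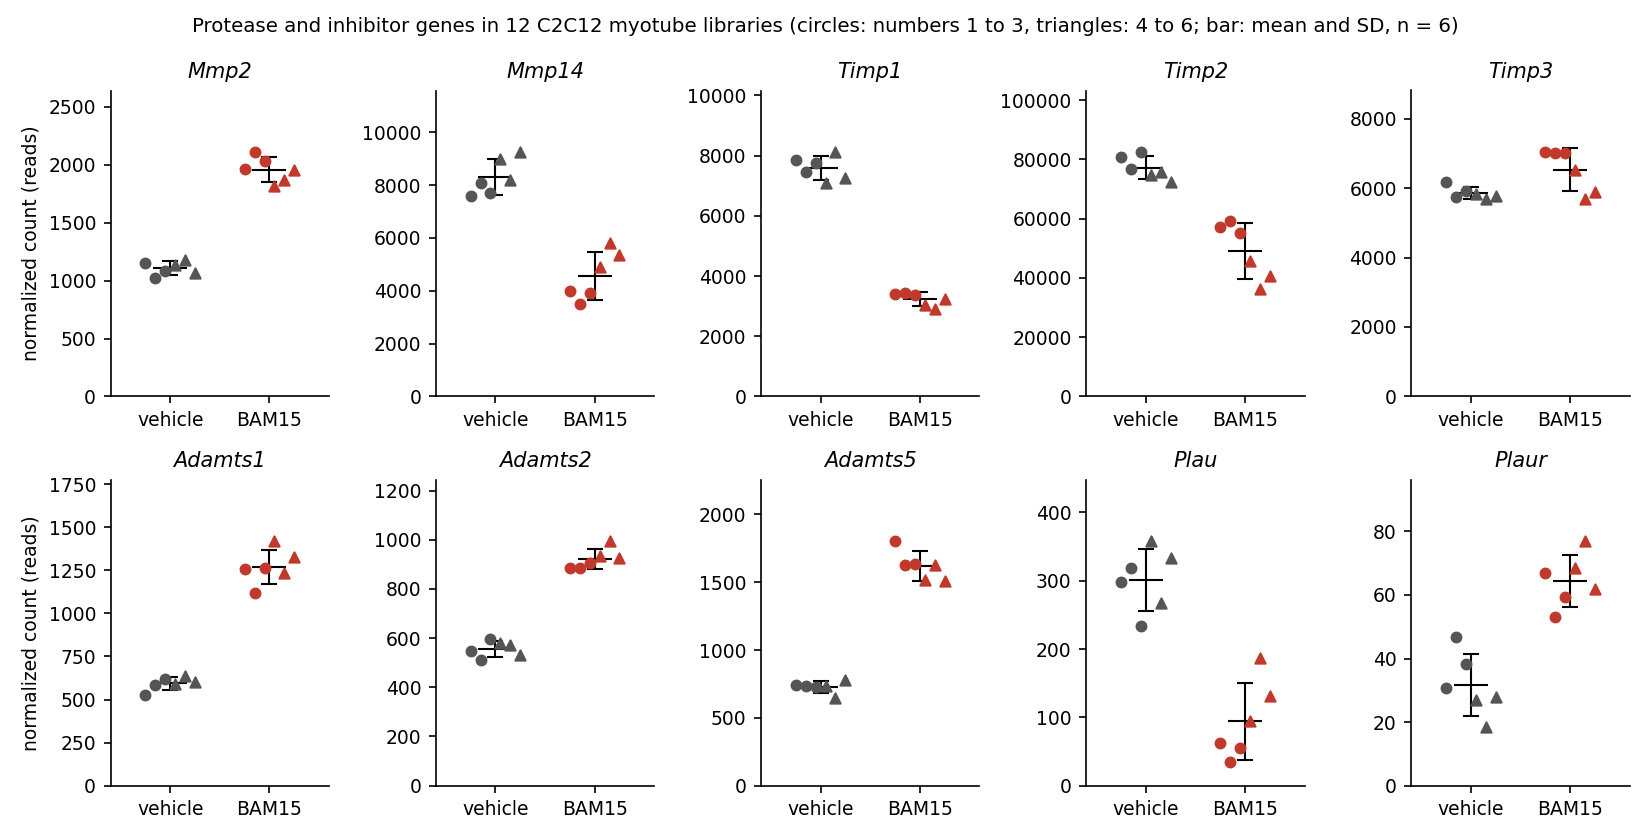
Normalized counts (reads, linear axis from 0) of the 10 genes in each of the 6 vehicle (grey) and 6 BAM15 (red) libraries, with circles for library numbers 1 to 3, triangles for numbers 4 to 6, and bars for mean and SD. The conditions are separate for every gene except Timp3, and within BAM15 the triangles differ from the circles at an adjusted p below 0.01 for Mmp14 and Plau (triangles higher) and for Timp2 and Timp3 (triangles lower).

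Sequences around the start sites of the members were read from the RefSeq promoter table (GRCm38.p6), which held 7 of the 10 members. Mmp2, Adamts5 and Plau had no entry. Each entry spans 250 bases before to 50 bases after the start, and 3 motifs were searched on both strands: TGANTCA (the AP-1 motif), TGATGNAA (the C/EBP-ATF response element) and GGAATG (the TEAD motif), which do not overlap in the matches found. Plaur held TGACTCA with its first base 69 before the start (at -69), a motif found in 7.81% of all 32851 promoters of the table. Timp1 held GGAATG at -247, a motif found in 14.7%. TGATGNAA, present in 3.97% of all promoters, was in 0 of the 7, and Mmp14, Timp2, Timp3, Adamts1 and Adamts2 held none of the 3. A match describes letters and is no evidence of binding, and no match says only that the letters are not in this window. The 250 bases before the start are shown for the 2 members with a match and for Adamts1, a member that rose without a match, from 5′ to 3′ on the strand of the gene with matches in capitals. Timp1 is at chrX:20869916-20870165 (plus strand), Plaur at chr7:24462233-24462482 (plus strand) and Adamts1 at chr16:85803114-85803363 (minus strand).
Timp1: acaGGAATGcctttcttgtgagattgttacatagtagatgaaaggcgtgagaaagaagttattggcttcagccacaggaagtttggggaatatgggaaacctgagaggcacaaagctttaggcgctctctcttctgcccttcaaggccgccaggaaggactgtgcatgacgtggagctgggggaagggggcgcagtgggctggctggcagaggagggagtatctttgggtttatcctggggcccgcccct
Plaur: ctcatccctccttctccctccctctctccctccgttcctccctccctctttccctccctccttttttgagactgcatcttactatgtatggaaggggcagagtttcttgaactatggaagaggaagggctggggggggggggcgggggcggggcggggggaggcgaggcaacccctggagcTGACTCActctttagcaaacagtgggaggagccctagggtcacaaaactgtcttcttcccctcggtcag
Adamts1: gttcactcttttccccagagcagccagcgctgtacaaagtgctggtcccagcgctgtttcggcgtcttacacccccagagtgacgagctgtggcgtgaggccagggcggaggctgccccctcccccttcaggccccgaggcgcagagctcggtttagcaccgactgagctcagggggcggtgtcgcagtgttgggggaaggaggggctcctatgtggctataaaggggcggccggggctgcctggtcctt

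Mmp2, or gelatinase A, digests basement membrane collagen and denatured collagen. The gene lies on the plus strand of chromosome 8 (chr8:92827291-92853420, GRCm38). Its normalized count ran from 1025 over a median of 1112 to 1181 in vehicle and from 1817 over 1957 to 2113 in BAM15. The conditions were well separated, and the spread within each was small, with a coefficient of variation of 5.32% in vehicle and 5.49% in BAM15. Mmp2 rose 1.77-fold (log2 fold change 0.82, SE 0.05, adjusted p = 8.13e-09 by edgeR), which is short of 2-fold. The rise was 0.90 within numbers 1 to 3 and 0.74 within numbers 4 to 6 on the log2 scale.

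Mmp14 is the membrane-type protease that activates the MMP2 precursor and also cuts fibrillar collagen. It lies at chr14:54431612-54445364 on the plus strand. Its normalized counts in vehicle were 7582 at the lowest, 8122 at the median and 9266 at the highest, and in BAM15 3491, 4444 and 5800. Every BAM15 library was below every vehicle library, but the BAM15 libraries were widely spread, at 19.9% of their mean against 8.26% in vehicle. Mmp14 fell by 0.86 on the log2 scale (SE 0.11, adjusted p = 1.39e-05 by edgeR), or 1.82-fold. The BAM15 spread followed the library numbers, since libraries 1 to 3 averaged 3796 ± 266 (SD, n = 3) and libraries 4 to 6 averaged 5348 ± 446 (SD, n = 3). That difference was itself called (log2 difference 0.49, adjusted p = 1.84e-04 by edgeR), and the fall against the vehicle libraries of the same numbers was -1.04 in numbers 1 to 3 and -0.72 in numbers 4 to 6. Of the 351 windows of 50 bases in the last 400 bases of the Mmp14 transcript, 28 (7.98%) also occur in transcripts of other genes, so a part of its reads could be assigned elsewhere. No such window was found for the other 9 members.

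Timp1, an inhibitor of most MMPs that many cells secrete on stimulation, had the tightest BAM15 values of the 4 members that fell, with a coefficient of variation of 6.90%. The gene, whose upstream sequence with the GGAATG match is shown above, is at chrX:20870166-20874735 on the plus strand. In vehicle it ran from 7097 over a median of 7610 to 8132 normalized counts, and in BAM15 from 2893 over 3314 to 3443. No BAM15 library came near the vehicle range. Timp1 fell by 1.23 on the log2 scale (SE 0.06, adjusted p = 1.58e-10 by edgeR), or 2.35-fold, and passed all 3 thresholds. The fall was -1.17 within numbers 1 to 3 and -1.29 within numbers 4 to 6, and BAM15 libraries 4 to 6 did not pass the test against 1 to 3 (adjusted p = 0.0713 by edgeR).

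Timp2, the inhibitor that also serves as the adaptor for MMP2 activation, was among the most abundant transcripts of the cells. It is on the minus strand at chr11:118301069-118355740. By normalized count per gene it ranked 10 of the 12730 tested genes in vehicle. Vehicle libraries ran from 72447 over a median of 76252 to 82584, and BAM15 libraries from 36365 over 50483 to 59246. The conditions did not overlap, although the BAM15 libraries spread over a wide range. Timp2 fell by 0.65 on the log2 scale (SE 0.11, adjusted p = 1.30e-04 by edgeR), or 1.57-fold. BAM15 libraries 1 to 3 averaged 57215 ± 2031 (SD, n = 3) and libraries 4 to 6 averaged 40923 ± 4715 (SD, n = 3), a log2 difference of -0.48 (adjusted p = 1.89e-04 by edgeR). Thus the libraries with the higher Mmp14 had the lower Timp2. The fall against vehicle was -0.48 in numbers 1 to 3 and -0.86 in numbers 4 to 6.

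Timp3, which is held in the matrix and also inhibits ADAM and ADAMTS proteases, was the single member that did not pass. It lies at chr10:86300372-86349506 on the plus strand. Vehicle libraries ran from 5688 over a median of 5808 to 6172 normalized counts, and BAM15 libraries from 5697 over 6766 to 7049. The ranges overlapped through BAM15 libraries 5 and 6. The log2 fold change was 0.16 (SE 0.06, adjusted p = 0.0447 by edgeR), with a 95% interval from 0.03 to 0.28. Within numbers 1 to 3 Timp3 was higher by 0.24 (adjusted p = 0.00304 by edgeR), and within numbers 4 to 6 the difference was 0.06 (adjusted p = 0.397). BAM15 libraries 4 to 6 were below 1 to 3 by a log2 difference of -0.22 (adjusted p = 0.00865). All of the last 400 bases of Timp3 lie across from exons of Syn3 on the opposite strand, and since the strand used in counting was not given in the sources used here, reads of the pair might not be told apart; Syn3 was not among the tested genes.

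The TIMPs were also summed, as a description without a test. The summed normalized counts of Timp1, Timp2 and Timp3 ran from 85504 to 96269 in vehicle and from 44955 to 69711 in BAM15. Timp1 held 8.06% to 9.07% of the reads on these 3 genes in vehicle and 4.94% to 6.54% in BAM15, whereas Timp3 held 6.15% to 6.76% and 10.1% to 12.7%. Timp2 made up most of the sum throughout, at 84.6% to 85.8% in vehicle and 80.9% to 85.0% in BAM15. Within BAM15 the Timp1 share was 4.94% to 5.15% in libraries 1 to 3 and 5.48% to 6.54% in libraries 4 to 6, and the Timp3 share was 10.1% to 10.7% and 11.8% to 12.7%.

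The reads on each protease were also set against those on Timp2 in the same library, which removes any scaling between libraries. For every 1000 Timp2 reads there were 13.2 to 15.6 Mmp2 reads in vehicle (median 14.5) and 34.3 to 51.3 in BAM15 (median 38.2). The ranges were apart in both sets of BAM15 libraries, at 34.3 to 36.8 in numbers 1 to 3 and 39.7 to 51.3 in numbers 4 to 6. The corresponding values for Mmp14 were 93.4 to 128 in vehicle and 58.9 to 159 in BAM15. Here the conditions overlapped, with BAM15 libraries 1 to 3 below vehicle at 58.9 to 71.0, while libraries 4 to 6 ran from 107 to 159. These ratios describe reads of 3′ libraries and not protein, and were not tested.

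**Figure D2:**
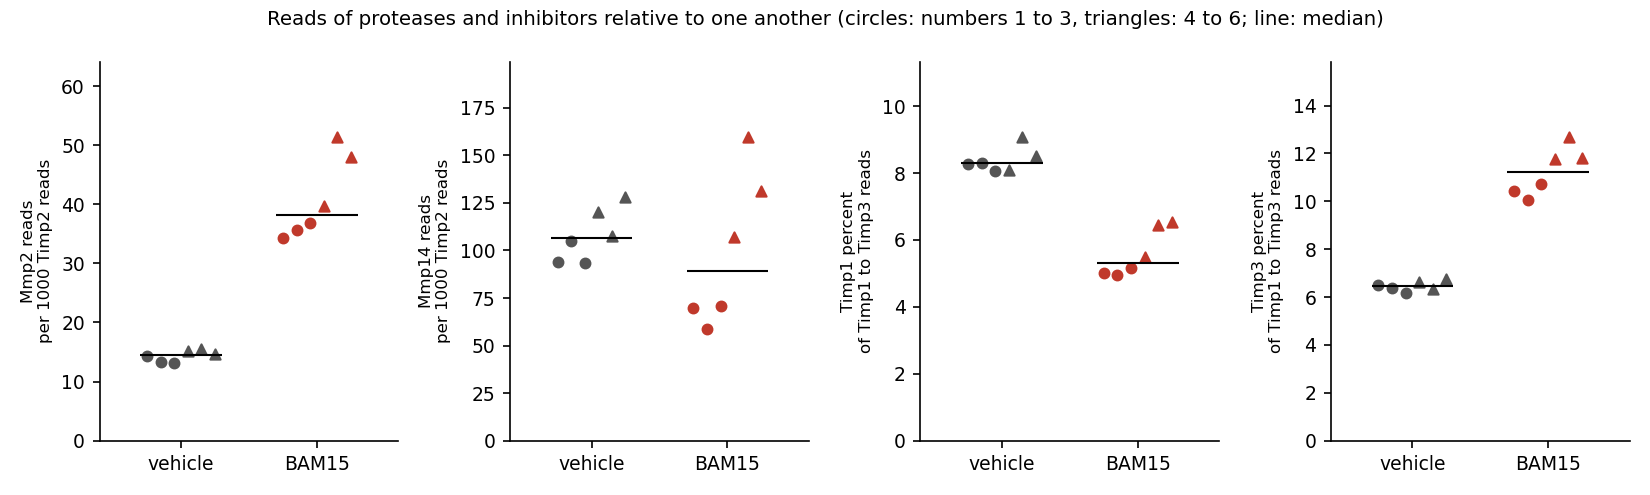
From left to right, Mmp2 and Mmp14 reads per 1000 Timp2 reads, and the percent of the summed Timp1, Timp2 and Timp3 reads taken by Timp1 and by Timp3, in each of the 6 vehicle (grey) and 6 BAM15 (red) libraries, with a line at the median, circles for library numbers 1 to 3 and triangles for 4 to 6. Mmp2 over Timp2 and both shares separate the conditions, while Mmp14 over Timp2 does not, with BAM15 circles below and triangles within or above the vehicle range.

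All 3 ADAMTS members rose. Adamts1 and Adamts5 cut the proteoglycans aggrecan and versican, and the genes lie close together on the minus strand of chromosome 16, at chr16:85793827-85803113 and chr16:85856173-85901828. Adamts1 ran from 526 over a median of 596 to 638 normalized counts in vehicle and from 1118 over 1260 to 1420 in BAM15. Adamts5 ran from 648 over 736 to 783 in vehicle and from 1507 over 1628 to 1805 in BAM15. For both genes the lowest BAM15 library was far above the highest vehicle library. Adamts1 rose 2.14-fold (log2 fold change 1.10, SE 0.07, adjusted p = 2.57e-09 by edgeR), and Adamts5 rose 2.22-fold (1.15, SE 0.06, adjusted p = 5.65e-10 by edgeR).

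Adamts2, which instead removes the amino-terminal propeptide of fibrillar procollagens, is at chr11:50602084-50807573 on the plus strand. It ran from 511 over a median of 559 to 598 normalized counts in vehicle and from 883 over 915 to 995 in BAM15, again without overlap. It rose 1.66-fold (log2 fold change 0.73, SE 0.06, adjusted p = 4.52e-08 by edgeR). Within numbers 1 to 3 and 4 to 6, respectively, the log2 fold change was 1.07 and 1.12 for Adamts1, 1.20 and 1.10 for Adamts5, and 0.69 and 0.76 for Adamts2. BAM15 libraries 4 to 6 did not pass the test against 1 to 3 for these genes, with adjusted p = 0.219 for Adamts1, 0.200 for Adamts5 and 0.340 for Adamts2.

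The urokinase pair moved in opposite directions. Plau, at chr14:20836660-20843385 on the plus strand, ran from 233 over a median of 308 to 358 normalized counts in vehicle and from 34.6 over 78.6 to 187 in BAM15. The highest BAM15 library was below the lowest vehicle library, but the BAM15 values were the most scattered of any member, at 60.1% of their mean. Plau fell by 1.68 on the log2 scale (SE 0.32, adjusted p = 6.29e-04 by edgeR), or 3.20-fold. BAM15 libraries 1 to 3 averaged 50.7 ± 14.4 (SD, n = 3) and libraries 4 to 6 averaged 138 ± 46.3 (SD, n = 3), and that difference was called (log2 difference 1.44, adjusted p = 0.00108 by edgeR). Within the sets of numbers the fall was -2.46 in 1 to 3 and -1.21 in 4 to 6.

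Plaur, which anchors urokinase to the cell surface, is at chr7:24462484-24475968 on the plus strand and had the fewest reads of the members, with the TGACTCA match shown above. Vehicle libraries ran from 18.6 over a median of 29.4 to 46.8 normalized counts, and BAM15 libraries from 52.9 over 64.4 to 77.0. The ranges lay close to each other without touching. Plaur rose 2.04-fold (log2 fold change 1.03, SE 0.19, adjusted p = 2.60e-04 by edgeR), but its mean over the 12 libraries, 48.0 normalized counts, was under the level threshold. The rise was 0.64 within numbers 1 to 3 (adjusted p = 0.0181 by edgeR), which does not pass, and 1.49 within numbers 4 to 6. BAM15 libraries averaged 59.7 in numbers 1 to 3 and 69.1 in 4 to 6 (log2 difference 0.21, adjusted p = 0.429 by edgeR). Vehicle libraries averaged 38.6 and 24.5 (log2 difference -0.64, adjusted p = 0.841 by edgeR). The gap between the 2 rises thus lay more in the vehicle libraries, and neither difference passed.

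**Figure D3:**
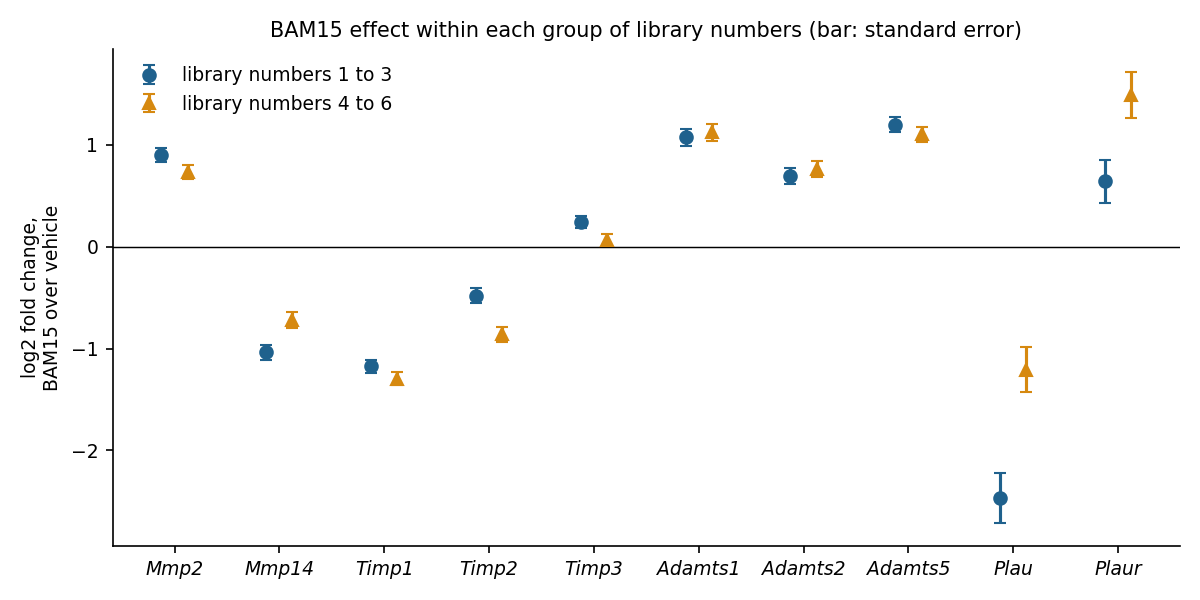
Log2 fold change of BAM15 over vehicle for each of the 10 genes, computed within library numbers 1 to 3 (blue circles) and within numbers 4 to 6 (orange triangles), with bars for the standard error. Every gene has the same sign in both sets, and the points lie farthest apart for Plau (-2.46 and -1.21) and Plaur (0.64 and 1.49).

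The difference between the sets of numbers in the effect of BAM15 was tested directly as an interaction. It passed an adjusted p below 0.05 for 339 genes (2.66%) and below 0.01 for 0 genes, and 0 members passed at either level. The lowest adjusted p among the members were 0.0543 for Timp2 (log2 difference of the effects -0.38), 0.0574 for Plau (1.26), 0.0829 for Mmp14 (0.32) and 0.108 for Plaur (0.85). Within each set, in the same fit of 4 groups, 9 of 10 members passed the adjusted p threshold, with 39.3% of all genes passing within numbers 1 to 3 and 40.6% within 4 to 6.

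Around the members, 8 lists of 103 genes, chosen from general knowledge, hold further matrix proteases and their controls. They also hold matrix proteins that the proteases cut or bind. The table held 69 of these and 62 were tested. Of the 62, 12 were higher and 27 lower at the adjusted p threshold, where 22% of all tested genes were higher and 20.3% lower. The 12 include Mmp13, which had at most 3 counts in any vehicle library. The 27 include Adamts8, which had at most 6 counts in any BAM15 library. All 3 thresholds were passed by 13 of the 62 (5 higher, 8 lower), against 7.28% of all genes, and the counts of each list below can be read against the same shares. Their median log2 fold change was -0.32, below that of the members and of all genes. Genes are named here mostly where they passed all 3 thresholds or were among the 3 of a list with the most reads.

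Of 6 other MMPs tested, 3 rose and 1 fell. The 3 include Mmp13, which passed the filter on low counts through its BAM15 libraries alone, so its call is no support. Mmp11, or stromelysin-3, rose from 985 ± 27.2 (SD, n = 6) to 4432 ± 964 (SD, n = 6) normalized counts (log2 fold change 2.17, SE 0.12, adjusted p = 1.57e-09 by edgeR), which puts it above Mmp2 in BAM15 by reads at the 3′ end. The rise of Mmp11 was 1.91 within numbers 1 to 3 and 2.38 within 4 to 6 on the log2 scale (interaction adjusted p = 0.0488 by edgeR). Mmp19 rose by a log2 fold change of 0.97 (adjusted p = 6.49e-05), and the membrane-type Mmp15 fell by 0.58 on the log2 scale (adjusted p = 1.47e-06). For Mmp19 the rise was 0.68 within numbers 1 to 3 and 1.20 within 4 to 6 (interaction adjusted p = 0.137 by edgeR). BAM15 libraries 4 to 6 were above 1 to 3 for Mmp19 by 0.55 (adjusted p = 0.00594 by edgeR). Outside the naming rule and chosen after its values were seen, the collagenase Mmp13 had at most 3 counts in any vehicle library and 42.5 ± 9.11 normalized counts (SD, n = 6) in BAM15. Set against a floor of 3 counts per vehicle library it was at least 14.4-fold higher, with a mean level under 50. No p-value is given for Mmp13, since it passed the filter on low counts through its BAM15 libraries alone. Of 6 further genes that control MMPs, 1 rose and 2 fell. The most abundant of them were Bsg, an inducer of MMPs (log2 fold change -0.13, adjusted p = 0.0563), the MMP14-activating convertase Furin (-0.29, adjusted p = 0.0172) and the clearance receptor Lrp1 (0.28, adjusted p = 0.339), and none of these 3 passed over all libraries. For Furin the log2 fold change was -0.10 in numbers 1 to 3 and -0.52 in 4 to 6. The interaction (adjusted p = 0.0444 by edgeR) did not pass at 0.01. Its BAM15 libraries 4 to 6 were below 1 to 3 by a log2 difference of -0.44 (adjusted p = 2.83e-04 by edgeR).

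The other ADAMTS family genes went mostly the other way from the 3 members. Of 15 tested, 2 rose and 9 fell, with a median log2 fold change of -0.47. The 9 include Adamts8, which had at most 6 counts in any BAM15 library and 35 in any vehicle library. Adamts15, a further proteoglycan-cutting enzyme, fell by 1.31 on the log2 scale (110 to 44.6 normalized counts, adjusted p = 1.06e-05 by edgeR), and the aggrecanase Adamts4 fell by 0.61 (adjusted p = 4.08e-05). For Adamts4, BAM15 libraries 4 to 6 were above 1 to 3 by 0.33 on the log2 scale (adjusted p = 0.00488 by edgeR). The ADAMTS-like protein Adamtsl3, which has no protease domain, rose by a log2 fold change of 1.34 (29.8 to 75.3, adjusted p = 3.28e-06). Adamtsl5 (-0.03, adjusted p = 0.610) and Adamts14 (-0.13, adjusted p = 0.0534) did not pass.

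In the plasminogen system, 1 of 6 genes rose and 3 fell. Anxa2 and S100a10, partners in a cell-surface complex that binds plasminogen, fell by 1.06 (adjusted p = 1.16e-08 by edgeR) and 0.72 (adjusted p = 8.12e-06) on the log2 scale. Serpine2, an inhibitor of thrombin and urokinase, rose by 0.86 (adjusted p = 3.60e-06). Within numbers 1 to 3 the log2 fold change was -0.94 for Anxa2, -0.89 for S100a10 and 0.99 for Serpine2. In numbers 4 to 6 the values were -1.20, -0.57 and 0.70. For all of these genes BAM15 libraries 4 to 6 differed from 1 to 3 (adjusted p = 0.00240, 3.30e-04 and 0.00107 by edgeR), while the interaction did not pass.

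Among other proteases, 0 of 7 ADAM genes rose and 2 fell. Adam12, which is linked to myoblast fusion, fell by 2.36 on the log2 scale (88.0 to 17.1 normalized counts, adjusted p = 8.19e-09 by edgeR), and Adam19 fell by 0.65 (adjusted p = 2.67e-06). The sheddases Adam10 (-0.13, adjusted p = 0.154) and Adam17 (-0.19, adjusted p = 0.0381) did not pass. Of 3 genes for removal of the carboxy-terminal procollagen propeptide, the enhancers Pcolce and Pcolce2 fell by 1.13 (adjusted p = 7.80e-09) and 1.56 (adjusted p = 3.51e-11), while the protease Bmp1 gave -0.24 (adjusted p = 0.0134). These enhancers thus went the other way from Adamts2, which removes the propeptide at the other end, while the protease Bmp1 did not pass. Adamts14, of the same family as Adamts2, did not rise (log2 fold change -0.13, adjusted p = 0.0534 by edgeR). The contrast therefore holds for Adamts2 against Pcolce and Pcolce2 only.

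Of 7 matrix serine and cysteine proteases and cystatins, 2 rose and 2 fell. The serine protease Htra1 rose by a log2 fold change of 1.26 (730 to 1754 normalized counts, adjusted p = 3.95e-11 by edgeR) and its relative Htra3 fell by 1.01 (506 to 251, adjusted p = 1.55e-06). For Htra3, BAM15 libraries 4 to 6 were below 1 to 3 by a log2 difference of -0.41 (adjusted p = 0.00750 by edgeR). The lysosomal protease Ctsl rose by 1.51 (adjusted p = 2.81e-05), from 5067 ± 373 to a widely spread 14466 ± 5325 (SD, n = 6 each). The rise of Ctsl was 1.12 within numbers 1 to 3 and 1.79 within 4 to 6 (interaction adjusted p = 0.0845 by edgeR). Its BAM15 libraries 4 to 6 were above 1 to 3 by 0.83 (adjusted p = 0.00129 by edgeR). Ctsb (0.21, adjusted p = 0.0169) and the cystatin Cst3 (-0.45, adjusted p = 0.139) did not pass over all libraries. For Cst3 the difference from vehicle was -0.95 within numbers 1 to 3 and -0.11 within 4 to 6 (interaction adjusted p = 0.0962 by edgeR), and BAM15 libraries 4 to 6 were above 1 to 3 by 1.02 (adjusted p = 0.00256).

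Of 12 matrix proteins that these proteases cut or bind, 3 rose and 6 fell. Thbs1, a matricellular protein, fell by 2.69 on the log2 scale (1542 to 239 normalized counts, adjusted p = 1.96e-10 by edgeR), and the basement membrane linker Nid1 rose by 1.47 (782 to 2164, adjusted p = 4.53e-09). Fibronectin (Fn1) rose by 0.66 (adjusted p = 1.47e-04) and Col3a1 fell by 0.24 (adjusted p = 0.00311). Biglycan (Bgn) gave 0.16 (adjusted p = 0.175), with 0.33 within numbers 1 to 3 and -0.03 within 4 to 6.

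**Figure D4:**
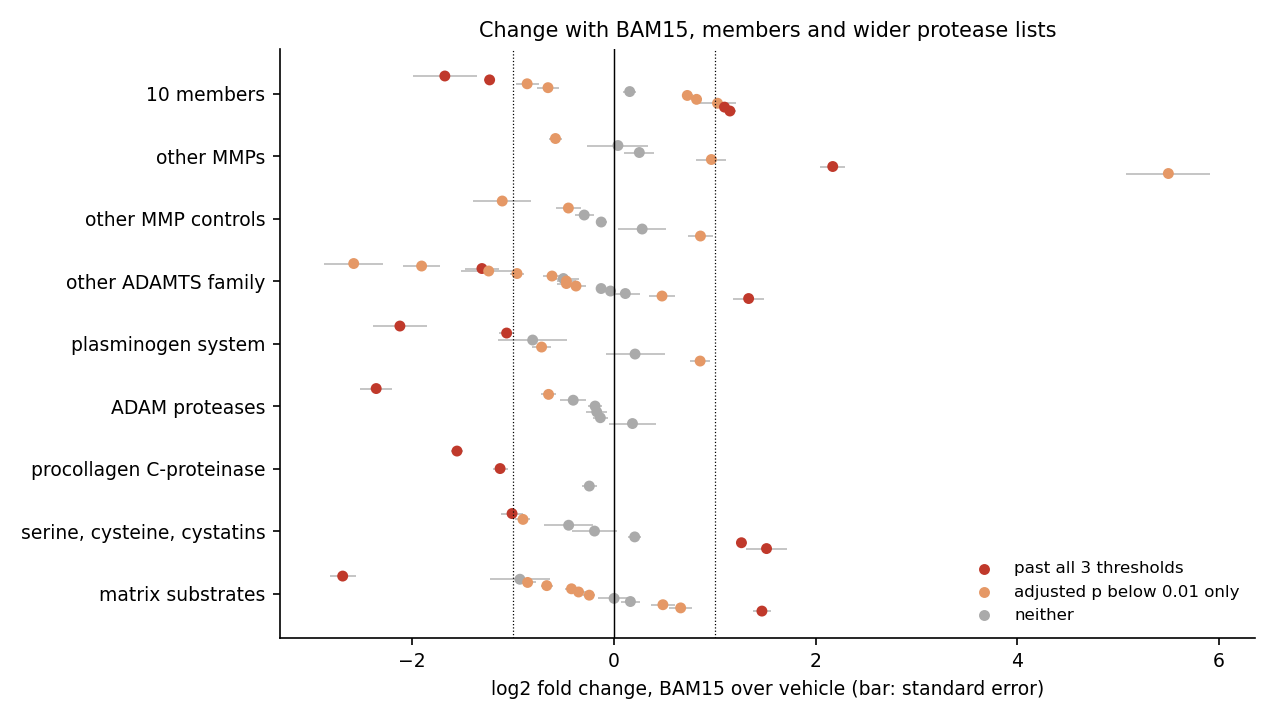
Log2 fold change of BAM15 over vehicle (bars, standard error) for the 10 members in the top row and for the tested genes of the 8 wider lists below, with dotted lines at a 2-fold change and colours for the thresholds passed. The members lie between -1.68 and 1.15; the point farthest to the right is Mmp13, whose fitted value depends on vehicle counts at the floor.

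The myotube label was checked with marker genes. The summed normalized counts of 10 myotube genes ran from 503455 to 556567 in vehicle and from 465726 to 600024 in BAM15, with 2 genes higher, 2 lower and 6 not passing. Within BAM15 the sum was 555842 to 600024 in libraries 1 to 3 and 465726 to 498702 in libraries 4 to 6, so it was lower in the libraries with lower Timp2 and higher Plau. The sum of 10 genes of undifferentiated or cycling myoblasts was 11439 to 12342 in vehicle and 5840 to 6374 in BAM15, with 7 lower, 2 not passing and 1, Myf5, higher. Fibroblast genes summed to 956 to 1256 in vehicle and 809 to 874 in BAM15, with Pdgfrb lower and the other 4 of 5 tested not passing (of 8 listed). The fibroblast markers differed in level. Lum and Dpt had at most 4 and 15 counts in any library, whereas Pdgfrb, Cd34 and Dpep1 reached 607, 331 and 323. Macrophage genes (4 of 6 listed were in the table) summed to 21.3 to 38.2 in vehicle and 65.4 to 95.1 in BAM15. Endothelial genes summed to at most 12.2 in any library, but this sum covers only Tek and Vwf, the 2 of 6 listed that were in the table. Of the macrophage list, Cd68 alone was tested and rose. The other macrophage markers Csf1r, Lyz2 and Itgam had at most 17, 7 and 12 counts in any library, and Ptprc and Adgre1 were not found by symbol in the table. The part of these markers in the changes of the members was not tested.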

How the data were processed

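RNA of C2C12 myotubes was sequenced from 6 BAM15 and 6 vehicle libraries, and all 12 were used. The authors aligned and counted forward reads of QuantSeq libraries with BlueBee software, and the deposited counts are whole reads per Ensembl gene without normalization. The submitters' processing notes name GRCm38 and DESeq2 1.22.2. Aligner, annotation and counting strand are not given in the sources used here, and passage and read length differ between the paper and the sample records. The authors also deposited a normalized signal, which is each library's counts over its own size factor (0.836 to 1.07) and was used only for an alternative scaling. The tables hold 11 further columns, which were not used. Of 2293 gene identifiers without a symbol, 2260 were named from the reference gene table.

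Counts were tested in R 4.3.3 with edgeR 4.0.16, using filterByExpr, TMM factors (0.932 to 1.04), robust quasi-likelihood fits with the condition as the only term, and Benjamini-Hochberg adjustment over 12730 genes. A normalized count is the count divided by the effective library size and multiplied by the mean effective size. The thresholds follow the study's methods. Interaction tests used a fit of 4 groups (condition by library numbers 1 to 3 or 4 to 6). No library was a copy of another, by a chi-square of counts over genes. Positions came from the GENCODE annotation of GRCm38. Figures used matplotlib 3.10.9 (Python 3.11.15), and the tests were checked on simulated data. The members, gene lists and tests were chosen with earlier results of these data known. All members are named, and of the wider lists the genes past all 3 thresholds and the 3 of each list with the highest mean count. A gene that this rule takes in is not reported here. Alternatives were DESeq2 1.42.0, limma-voom (limma 3.58.1), other scalings, filters, thresholds and blocks, and each library left out.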

Additional observations from a re-analysis of the deposited data

How the results depend on the processing

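Over 25 alternatives for each of the 10 members, 247 of 250 log2 fold changes kept their direction and their side of the adjusted p threshold, and 0 reversed. The exceptions were Plaur with numbers 1 to 3 only, which no longer passed (0.64, adjusted p = 0.0172), and Timp3, which passed without BAM15 replicate 5 (0.19, adjusted p = 0.00886) and with numbers 1 to 3 only (0.24, adjusted p = 9.46e-04). Where a log2 fold change above 2 was required, 0 members and 4 genes of the wider lists passed, by construction of the stricter threshold. With each library left out in turn, 9 to 10 members passed the adjusted p threshold, 4 passed all 3 thresholds, and 11 to 15 genes of the wider lists did. With numbers 1 to 3 only, 5 members passed all 3 thresholds, Mmp14 being the added gene. A replicate block for the library number gave 9 members at the adjusted p threshold, 4 past all 3 and 14 genes of the wider lists. Same-numbered libraries of the conditions correlated in their deviations at -0.08 to 0.31, with 4 of 6 pairs over 0.1. Of the BAM15 libraries, 2 of 6 correlated best with their own number, so the single numbers were not taken to pair the samples. The best partner was vehicle library 3 for BAM15 libraries 1 to 3, and vehicle library 6 for BAM15 libraries 4 to 6. The best partners thus lay within the same set of numbers, and a shared origin of each set was not tested. BAM15 libraries of a set stood together against the other set, so their partners are not independent of one another. For the same reason the count of 2 of 6 cannot decide whether single numbers pair the samples. Other scalings moved the median of all genes by less than 0.1 on the log2 scale. Plaur and Mmp13 had under 50 normalized counts on average, so their values rest on few reads.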
